A study of Mus musculus with 4 samples.

Results

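The 5 genes Wrap73, Tprgl, Megf6, Arhgef16 and Prdm16, which lie side by side on mouse chromosome 4, are described here in activated CD8+ T cells. They were taken by name as neighbours on that chromosome, because Prdm16 and Arhgef16 went opposite ways between the labels of the study, so the difference between labels in these genes is a description and carries no test. They are 5 of 53465 genes in the table. The cells were CD8+ T cells purified from spleen and stimulated for 24 h with beads carrying antibodies to CD3 and CD28, which stand in for the antigen receptor and costimulatory signals. Of the 4 libraries, 2 carry the label wild type (WT) and 2 the label PP2Cm knockout (KO), where PP2Cm is the mitochondrial phosphatase encoded by Ppm1k, which switches on the breakdown of branched-chain amino acids. The labels call the libraries of a genotype biological replicates and give no strain, age, sex or promoter of a deletion.

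Prdm16 is a zinc finger transcription factor with a PR domain, related in sequence to histone methyltransferases. It is best known for steering precursors towards brown fat and for the upkeep of blood and neural stem cells, and it is not a gene usually named for mature T cells. Arhgef16, also called ephexin-4, is a guanine nucleotide exchange factor that loads the small GTPase RhoG with GTP downstream of the receptor EphA2, and RhoG then recruits ELMO and DOCK proteins to activate Rac. Megf6 encodes a protein with many EGF-like repeats, Tprgl a vesicle-associated protein studied at synapses, and Wrap73 a WD repeat protein of the centrosome and spindle pole.

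In GRCm38 the genes run in the order Wrap73, Tprgl, Megf6, Arhgef16 and Prdm16, over 495 kb. Wrap73 (ENSMUSG00000029029) lies at chr4:154142372-154167420 on the plus strand, and Tprgl (ENSMUSG00000029030) at chr4:154157485-154160666 on the minus strand, within the span of Wrap73. Megf6 (ENSMUSG00000057751) follows at chr4:154170730-154275713 on the plus strand. Arhgef16 (ENSMUSG00000029032) lies at chr4:154278486-154301676 and Prdm16 (ENSMUSG00000039410) at chr4:154316125-154636873, both on the minus strand, with 14448 bases between them. Arhgef16 therefore lies beyond the 3′ end of Prdm16, and their RefSeq starts are 337 kb apart.

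The 250 bases before the RefSeq start are shown for the 2 genes that went opposite ways, and for Tprgl, the most highly expressed gene of the locus, as a comparison. Sequences are from RefSeq (GRCm38.p6), read 5′ to 3′ on the gene's strand, and capitals mark every match on either strand to 1 of 5 motifs. The E-box was searched as CACGTG. The GC box was searched as GGGCGG. The TATA box was searched as TATAAA. The CCAAT box was searched under its own letters, and the ETS core was searched as GGAAG. In the sequences shown, no 2 matches overlap. The windows are chr4:154636874-154637123 for Prdm16, chr4:154299896-154300145 for Arhgef16 and chr4:154160685-154160934 for Tprgl, all on the minus strand.
Prdm16: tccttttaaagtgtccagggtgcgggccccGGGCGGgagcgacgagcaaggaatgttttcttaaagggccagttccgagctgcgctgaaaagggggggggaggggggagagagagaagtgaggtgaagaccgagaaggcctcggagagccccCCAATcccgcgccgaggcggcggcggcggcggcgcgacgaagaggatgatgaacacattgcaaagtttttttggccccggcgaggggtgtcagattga
Arhgef16: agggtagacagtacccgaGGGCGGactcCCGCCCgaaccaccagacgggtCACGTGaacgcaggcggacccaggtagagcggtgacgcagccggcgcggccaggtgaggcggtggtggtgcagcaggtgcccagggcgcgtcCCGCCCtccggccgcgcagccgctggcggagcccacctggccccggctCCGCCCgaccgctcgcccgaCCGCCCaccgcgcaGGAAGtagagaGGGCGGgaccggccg
Tprgl: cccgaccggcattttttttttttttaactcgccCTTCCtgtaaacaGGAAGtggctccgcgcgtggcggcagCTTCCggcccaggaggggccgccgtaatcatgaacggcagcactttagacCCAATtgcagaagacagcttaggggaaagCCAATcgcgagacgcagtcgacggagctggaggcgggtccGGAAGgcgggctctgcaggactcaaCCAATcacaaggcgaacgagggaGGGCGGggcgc

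The Arhgef16 window held 6 GC boxes, 1 E-box and 1 ETS core, the Prdm16 window 1 GC box and 1 CCAAT box, and the Tprgl window 1 GC box, 3 CCAAT boxes and 4 ETS cores. No TATA box was found in the windows of these genes. Of 32851 RefSeq windows of the same length, 32.7% held a GC box, 6.02% an E-box, 33.8% a CCAAT box, 64.1% an ETS core and 12.4% a TATA box, so the E-box was the least common of the matched motifs. The windows were rich in CpG dinucleotides, with 34 in Arhgef16, 22 in Prdm16 and 23 in Tprgl against a median of 6 over all windows. G and C made up 76.4% of the Arhgef16 window, 62.4% of the Prdm16 window and 60.8% of the Tprgl window, against a median of 52.4%. In GENCODE M21 some Arhgef16 transcripts start further upstream than the RefSeq start, and these matches describe letters in 1 window each.

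Before the results, the labels need a remark, because they conflict. Titles and the genotype field name 1 genotype for each library and the description code begins with the letters of the other. Groups follow the titles, and every sign below would turn if the codes were right. Ppm1k, the targeted gene, went against the titles: its counts were 102 and 94 in the WT-labelled libraries and 157 and 206 in the KO-labelled ones. Its log2 fold change, labelled KO minus labelled WT, was 0.97 (SE 0.23, adjusted p = 0.186 by edgeR's quasi-likelihood test with Benjamini-Hochberg adjustment), 1.24 with an adjusted p of 0.0278 without labelled WT replicate 1, where all its alternatives gave 0.0278 to 0.68. Library totals ran from 12967251 to 17316284 counts. The CD8 T cell markers Cd3e, Cd3d, Cd8a, Cd8b1, Trac, Cd2 and Lck were all counted, at a summed level of 2247 to 2661 CPM (counts relative to the library total, scaled by TMM). In bulk RNA, fewer cells of a type and less RNA per cell cannot be told apart.

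Prdm16, the transcription factor, had 47 and 29 counts in the WT-labelled libraries and 363 and 311 in the KO-labelled ones. These were 3.61 and 1.71 CPM against 27.3 and 21.5 CPM. Both KO-labelled libraries were high and both labelled WT low, with no overlap between them. The labels did not overlap, in either direction, in 44.9% of all genes tested. The means were 2.66 ± 1.35 and 24.4 ± 4.08 CPM (SD, n = 2 each), a 9.18-fold difference, and the fitted log2 fold change was 3.23 (SE 0.34). Without labelled WT replicate 1, the higher of its pair, it was 3.84. Between the 2 WT-labelled libraries the level differed 2.12-fold, with a 95% counting interval of 1.30 to 3.49, and between the KO-labelled ones 1.27-fold, with an interval of 1.09 to 1.48, so both pairs differed by more than counting error. These exact intervals cover counting error alone.

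Arhgef16, the RhoG exchange factor, had 28 and 60 counts in the WT-labelled libraries, or 2.15 and 3.53 CPM, and 0 counts in both KO-labelled libraries. The groups did not overlap, as in 44.9% of all genes tested, and the gene was low in all 4 libraries. At a floor of 3 counts per library, a count of 0 allows up to 0.226 and 0.208 CPM in the KO-labelled libraries. Against the mean of these floors, the mean of 2.84 ± 0.976 CPM (SD, n = 2) in the WT-labelled libraries was at least 13.1-fold higher. Labelled WT replicate 2 held 1.64 times as much as replicate 1, with a 95% counting interval of 1.03 to 2.67. A count of 0 in both libraries of 1 label, with at least 10 counts in both of the other, was found in 3 genes of the table. These were Arhgef16 and A530032D15Rik, at 0 in the KO-labelled libraries, and Gm49388, at 0 in the WT-labelled ones. At a minimum of 20 counts Arhgef16 alone was left, out of 12061 genes with at least that many in both WT-labelled libraries, a description made after the values were seen.

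Megf6, the EGF repeat gene between Tprgl and Arhgef16, had 2 counts in labelled WT replicate 2 and 0 in the other 3 libraries. That is under the floor of 3 counts in every library, so no fold is given. The gene did not pass the filter on low counts and was not fitted, while the other 4 genes of the locus passed.

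Tprgl and Wrap73, whose spans overlap on opposite strands, were close to even. Tprgl had 915 and 1173 counts in the WT-labelled libraries and 976 and 1001 in the KO-labelled ones, which were 70.3 and 69.1 CPM against 73.4 and 69.3 CPM. Wrap73 had 308 and 494 counts in the WT-labelled libraries and 325 and 350 in the KO-labelled ones, which were 23.7 and 29.1 CPM against 24.4 and 24.2 CPM. In both genes the libraries of the labels overlapped. The fitted log2 fold change was 0.03 (SE 0.12) for Tprgl and −0.12 (SE 0.17) for Wrap73, and the latter was 0.04 without labelled WT replicate 2, the library in which Wrap73 was highest.

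**Figure D1:**
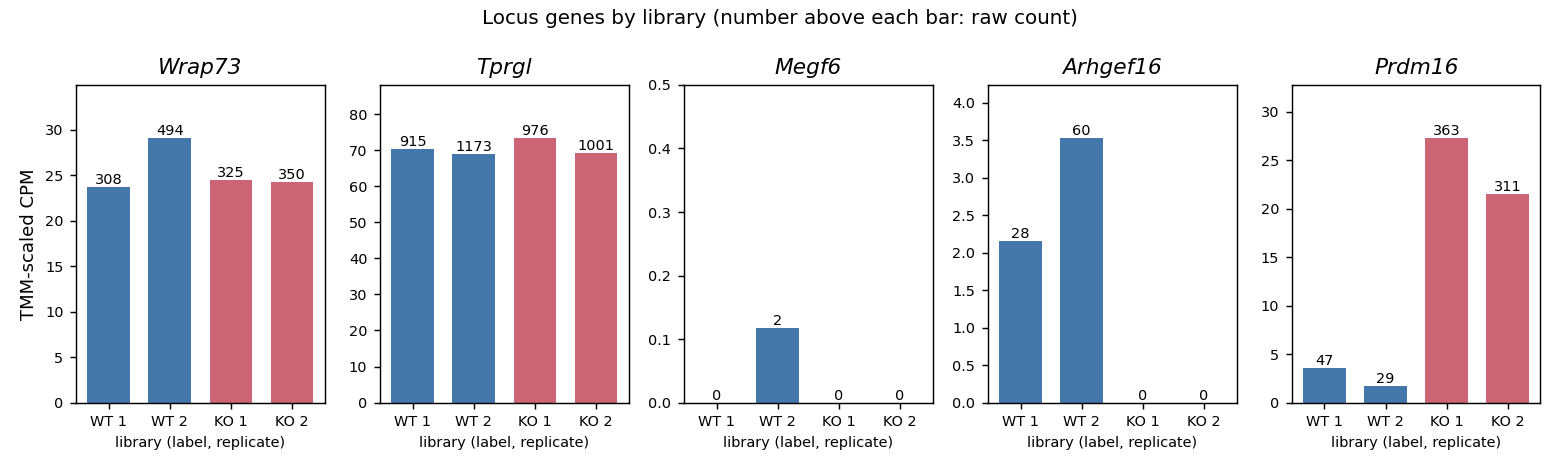
Level of the 5 locus genes in each library, as TMM-scaled CPM on a linear axis of its own for each gene, with the raw count above each bar; blue bars are labelled WT and red bars labelled KO. Prdm16 stands at 27.3 and 21.5 CPM in the KO-labelled libraries, where Arhgef16 is at 0, while Tprgl and Wrap73 are near even.

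Per length, as deposited FPKM, the order of levels in both WT-labelled libraries was Tprgl, Wrap73, Arhgef16, Prdm16 and Megf6. Tprgl stood at 18.5 and 17.8 FPKM there, Wrap73 at 4.61 and 5.54, Arhgef16 at 0.257 and 0.413, and Prdm16 at 0.236 and 0.109. Arhgef16 and Prdm16 were neighbours in that order whose spreads overlapped, at 0.335 ± 0.11 and 0.173 ± 0.0899 FPKM (SD, n = 2 each). In the KO-labelled libraries Prdm16 came after Tprgl and Wrap73, at 1.77 and 1.43 FPKM, and Arhgef16 and Megf6 were listed at 0. Prdm16 thus remained well under Wrap73, which stood there at 4.71 and 4.79 FPKM, and under Tprgl at 19.2 and 18.5. Among protein-coding genes with a count, 35.6% and 32.9% were at or below Prdm16 in the KO-labelled libraries and 15.9% and 12.6% in the WT-labelled ones, so its level was in the lower range in all 4 libraries.

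Within a library the log2 CPM of Arhgef16 minus that of Prdm16 was −0.71 and 0.99 in the WT-labelled libraries and −7.63 and −7.29 in the KO-labelled ones, with a prior count of 2. The difference carries the lengths of the 2 genes, which are the same in every library. The 2 genes thus stood close to each other in the WT-labelled libraries, in either order, and far apart in the KO-labelled ones. The size of the latter gap depends on how a count of 0 is treated.

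Whether reads could be exchanged between these genes was looked at in the GENCODE M21 transcripts. Prdm16, with 13 annotated transcripts, has 9454 distinct words of 31 bases, and 99.1% of them are in no transcript of another gene on either strand. The exceptions lie in B230104I21Rik, a gene on the opposite strand within the Prdm16 span that shares exon sequence with it, and in Mecom, its closest relative. Both had 0 counts in all 4 libraries. The sources used here do not say whether strand was used in counting, so reads of Prdm16 and B230104I21Rik could not be told apart by sequence over that stretch. Arhgef16, with 7 transcripts, has 5624 such words, of which 2 are shared, both with Klhdc8b. Words shared between members of the locus numbered 0. For Tprgl, 99.0% of 2298 words were its own, and for Megf6 and Wrap73 100% were.

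The lengths behind the deposited FPKM were 15336 bases for Prdm16, 8387 for Arhgef16, 3804 for Tprgl and 5148 for Wrap73. These are 1.65, 1.53, 1.70 and 1.19 times the total exon length of GENCODE M21, which is 9321, 5481, 2242 and 4335 bases. A longer length lowers a gene's FPKM in every library alike and leaves its ratio between libraries as it is.

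The other genes around the locus were chosen by position alone, from 1 Mb before Wrap73 to 1 Mb after Prdm16. Of 54 such genes, 27 had 0 counts in all 4 libraries and 18 passed the filter. None of the 18 passed the threshold by edgeR (adjusted p from 0.186), where 28 of 13528 genes tested, or 0.207%, passed. At an unadjusted p under 0.05 there were 0 higher and 1 lower, against 12.9% of all genes tested in either direction, and DESeq2 called 0, where it called 2.19% of all genes to which it gave an adjusted p. The median log2 fold change of the 18 was 0.08, against −0.01 over all genes tested. In 10 of the 18 (6 higher and 4 lower in the KO-labelled libraries) the labels did not overlap, or 55.6%, against 44.9% of all genes tested. The 4 other annotated genes inside the span of the locus had 0 counts in all.

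Telomeric to Prdm16 the 5 nearest tested genes were Fam213b, which encodes a prostamide synthase, Tnfrsf14, the receptor HVEM, Pank4, of the pantothenate kinase family, Pex10, a peroxisome biogenesis protein, and Rer1, a sorting receptor of the early Golgi. Their log2 fold changes were −0.36, −0.11, −0.03, 0.11 and 0.25, with SE of 0.30, 0.18, 0.14, 0.23 and 0.11. Tnfrsf14 stood at 22.1 and 17.0 CPM in the WT-labelled libraries and 18.7 and 17.5 CPM in the KO-labelled ones. The labels overlapped in the first 4 of these genes, and in Rer1 both KO-labelled libraries were higher, at 147.5 and 148.1 CPM against 133.0 and 115.6.

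Centromeric to Wrap73 the window held 4 tested genes, among them Lrrc47, a leucine-rich repeat protein, Dffb, the caspase-activated DNase, and A430005L14Rik. Lrrc47 stood at 56.9 and 53.2 CPM in the WT-labelled libraries and 90.2 and 58.4 CPM in the KO-labelled ones, a log2 fold change of 0.43 (SE 0.21). The log2 fold change was 0.32 (SE 0.17) for Dffb and −0.20 (SE 0.16) for A430005L14Rik. The adjusted p by edgeR was 0.446 for Lrrc47, 0.482 for Dffb and 0.635 for A430005L14Rik. The smallest p of the window belonged to Slc35e2, named for it after its values were seen, at 32.3 and 29.1 CPM against 20.3 and 19.3 CPM (log2 fold change −0.63, SE 0.15, adjusted p = 0.186 by edgeR).

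**Figure D2:**
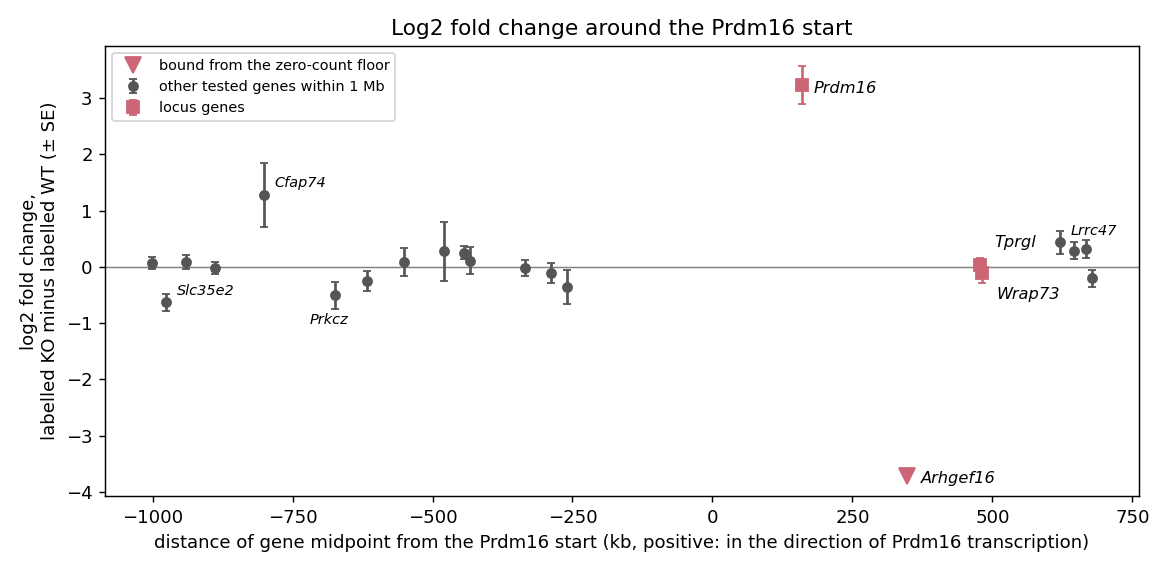
Fitted log2 fold change, labelled KO minus labelled WT, of the 18 tested genes within 1 Mb of the locus (grey) and of the locus genes (red), against the distance of each gene's midpoint from the Prdm16 start in kb; error bars are the standard error, and the triangle is the bound for Arhgef16 from the floor of 3 counts. Prdm16 lies at 3.23, Arhgef16 far below 0, and the other tested genes lie between −0.63 and 1.28.

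Which genes were most like Prdm16 and Arhgef16 was described by the distance between log2 CPM profiles over the 4 libraries, each centred on its own mean, among 11111 other protein-coding genes tested. Nearest to Prdm16 were Gm49388, Gm49322, Efna5, an ephrin ligand, Id1, an inhibitor of basic helix-loop-helix factors, and Usp44, a deubiquitinase, at distances of 0.856, 0.89, 0.995, 1.21 and 1.21. Gm49322 had 62 and 63 counts in the WT-labelled libraries and 416 and 747 in the KO-labelled ones, and Efna5 had 8 and 3 against 40 and 24. Like Prdm16, Efna5, Id1 and Usp44 were lowest in labelled WT replicate 2.

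Nearest to Arhgef16 were Cldn10, a tight junction claudin, Cfap54, a ciliary protein, A530032D15Rik, Prss34, a serine protease, and Itga2, an integrin chain. Their distances were 1.41, 1.48, 1.49, 1.68 and 1.98. Cldn10 had 17 and 23 counts in the WT-labelled libraries and 0 and 1 in the KO-labelled ones. Prss34 had 16 and 71 against 0 and 4. None of these 10 genes lies on chromosome 4. Most had few counts, and likeness over 4 libraries is chosen from the same values it describes.

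**Figure D3:**
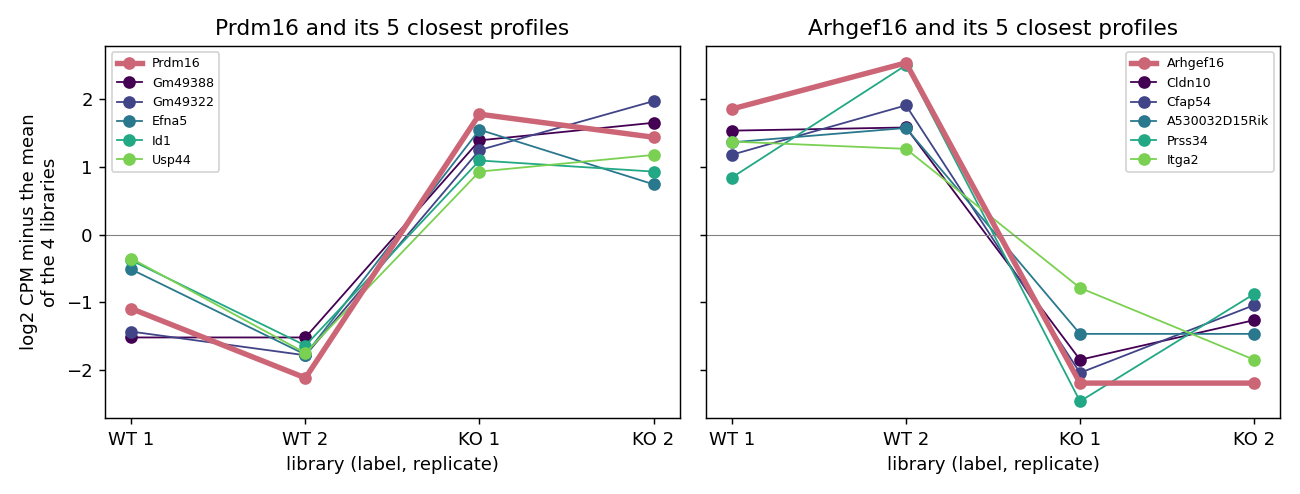
Log2 CPM of each gene minus its mean over the 4 libraries, for Prdm16 (left, thick red line) and Arhgef16 (right, thick red line) and the 5 closest profiles of each; lines join libraries of the 2 labels and stand for no order. Prdm16 is low in both WT-labelled libraries, lowest in replicate 2, and Arhgef16 is highest there.

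Markers of other cells were set beside these differences. Adipocyte markers were nearly absent: of 7, Adipoq, Plin1, Lep, Ucp1 and Cidea were at 0 in all 4 libraries, and the sum was at most 0.526 CPM in any library. Of 7 stem and progenitor markers Mecom was at 0, and the sum was 5.53 and 11.9 CPM in the WT-labelled libraries and 5.34 and 5.54 CPM in the KO-labelled ones, which overlapped. Dendritic, myeloid, and CD4 and regulatory T cell sums also overlapped, with every marker counted, at 7.07 to 12.2, 4.30 to 8.59 and 14.8 to 23.2 CPM. In the last list single markers went different ways. Like Prdm16, Cd4 (39 and 80 counts against 133 and 74), Foxp3 (16 and 12 against 31 and 19) and Cd40lg (13 and 19 against 16 and 22) had more CPM in both KO-labelled libraries. Zbtb7b, with 124 and 283 counts against 120 and 102, had less. Among all genes tested 21.5% were higher in the KO-labelled libraries without overlap, and 23.3% were lower. The part of such cells in the difference of Prdm16 was not tested.

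Like Arhgef16, the sums of 4 other marker lists were lower in both KO-labelled libraries. Of all single genes tested, 23.3% were lower there without overlap. Stromal and endothelial markers, of which 4 of 7 were counted and Cdh5, Kdr and Pdgfra were at 0, summed to 37.5 and 31.2 CPM in the WT-labelled libraries and 18.0 and 19.0 CPM in the KO-labelled ones. Nearly all of that sum was 1 gene, Pecam1, with 482 and 521 counts against 240 and 269, and Col1a1, Col1a2 and Pdgfrb each had a count in 1 library only, of 6, 9 and 6. Erythroid and platelet markers, 6 of 7 counted with Alas2 at 0, summed to 5.53 and 11.3 against 2.56 and 3.67 CPM. All 6 B cell markers were counted, with sums of 12.7 and 15.7 against 12.4 and 6.71 CPM, and all 4 NK cell markers, with sums of 84.7 and 95.0 against 83.2 and 78.4 CPM. The B cell sum was mostly Cd79b, and Ms4a1, with 6 and 17 counts against 23 and 5, overlapped. The NK cell sum was mostly Eomes, while Ncr1, with 0 and 20 counts against 13 and 7, and Klrb1c, with 4 and 15 against 28 and 11, were not lower in both KO-labelled libraries. The CD8 T cell sum was lower as well, at 2661 and 2455 against 2406 and 2247 CPM. Its markers Cd3d (2258 and 2981 counts against 1420 and 1977) and Lck (7088 and 9357 against 6448 and 5815) had less CPM in both. Cd3e, Cd8a, Cd8b1, Trac and Cd2 overlapped between the labels. The part of these cells in the difference of Arhgef16 was not tested.

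The other PRDM genes encode relatives of Prdm16 with a PR domain. Of 14 listed, 8 were tested and none passed by edgeR (adjusted p from 0.502), 0 had an unadjusted p under 0.05, against 12.9% of all genes tested, and DESeq2 called 0. Their median log2 fold change was 0.09. Prdm2 and Prdm4, which bind DNA through zinc fingers, and Prdm10 were the most abundant in CPM. Prdm2 stood at 93.3 against 100.1 CPM and had a log2 fold change of 0.10 (SE 0.12), and Prdm4 had 0.15 (SE 0.16) and Prdm10 0.04 (SE 0.15). Prdm1, which encodes Blimp-1, a driver of effector differentiation, had 34 and 100 counts in the WT-labelled libraries and 41 and 22 in the KO-labelled ones. Its log2 fold change was −0.91 (SE 0.49, adjusted p = 0.502 by edgeR) and its labels overlapped. Mecom, Prdm6, Prdm8, Prdm12 and Prdm14 had 0 counts in all 4 libraries.

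Of 17 genes listed as partners of Prdm16, 12 were tested and none passed by edgeR (adjusted p from 0.214) or DESeq2. At an unadjusted p under 0.05 by edgeR there were 0 higher and 1 lower, against 12.9% of all genes tested. The median log2 fold change was 0.08. Mecom, the relative of Prdm16, was in this list and in that of the PRDM genes. The corepressor gene Ctbp1 stood at 207.0 CPM under both labels (log2 fold change −0.00079, SE 0.11), and Med1, a subunit of the Mediator complex, had a log2 fold change of 0.10 (SE 0.10). Ski, a corepressor of SMAD signalling that also lies in the window on chromosome 4, had 1337 and 1550 counts in the WT-labelled libraries and 1001 and 1887 in the KO-labelled ones, so it was both lowest and highest in KO-labelled libraries. Smad3, a signal transducer of TGF-beta, stood at 74.1 CPM against 52.6 CPM, with a log2 fold change of −0.50 (SE 0.13, adjusted p = 0.214 by edgeR). Zfp516, a zinc finger partner of Prdm16 in brown fat, had −0.37 (SE 0.19, adjusted p = 0.477 by edgeR). Ppargc1a and Ebf2, partners in brown fat, had 0 counts in all 4 libraries, and Pparg and Ppara had 1 count in each of 2 libraries.

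Genes listed here as targets of Prdm16 in brown fat and stem cells mostly had too few counts to be tested. Of 14, 11 had a count in some library, 3 passed the filter and none passed the test by edgeR (adjusted p from 0.538) or DESeq2, with 0 at an unadjusted p under 0.05, against 12.9% of all genes tested. Ucp1, the uncoupling protein of brown fat, Cidea, a lipid droplet protein, and Cox8b, a cytochrome oxidase subunit, had 0 counts in all 4 libraries, where Prdm16 itself had 29 to 363. The log2 fold change was 0.30 (SE 0.37) for Pank1, a pantothenate kinase, 0.17 (SE 0.59) for Hlf and −1.19 (SE 0.70) for Gata2, both transcription factors of stem cells. Gata2 had 18 and 93 counts in the WT-labelled libraries and 30 and 12 in the KO-labelled ones, and its log2 fold change was 0.15 without labelled WT replicate 2.

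Genes of the ephexin family and of the route from RhoG to Rac stand downstream of Arhgef16 or beside it, and the listed receptor gene Epha2 stands upstream. Of 21 listed, 15 were tested and none passed by edgeR (adjusted p from 0.197). At an unadjusted p under 0.05 by edgeR there were 1 higher and 2 lower, against 12.9% of all genes tested. DESeq2 called 1, Rac2, where it called 2.19% of all genes to which it gave an adjusted p. Their median log2 fold change was −0.11, and in 11 of 15, or 73.3%, the labels did not overlap, 3 higher and 8 lower in the KO-labelled libraries. Over all genes tested 44.9% did not overlap. Rac2, the Rac GTPase of blood cells, had 8887 and 12491 counts in the WT-labelled libraries and 7178 and 6692 in the KO-labelled ones. Its log2 fold change was −0.50 (SE 0.13, adjusted p = 0.197 by edgeR and 0.0295 by DESeq2, all alternatives giving 0.0295 to 0.739). Trio, an exchange factor for Rac and RhoG among others, stood at 25.2 against 35.1 CPM (log2 fold change 0.48, SE 0.16, adjusted p = 0.299 by edgeR). Cdc42, a small GTPase, had a log2 fold change of −0.11 (SE 0.11) and Arhgdia, an inhibitor that holds small GTPases in the cytosol, −0.03 (SE 0.15). Of the other ephexins, Ngef, Arhgef19 and Arhgef26 had 0 counts in all 4 libraries, Arhgef15 had 1 count, and Arhgef5 had 31 and 45 counts against 28 and 28.

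Relatives and partners of Wrap73, Tprgl and Megf6 were listed as centrosomal genes and further MEGF genes. Of 14 names, 10 were tested and Tprg1 matched no row. By edgeR 1 passed, higher in the KO-labelled libraries, against 0.207% of all genes tested. This was Cep290, which builds the transition zone of cilia, with 61 and 61 counts in the WT-labelled libraries and 201 and 322 in the KO-labelled ones. Its log2 fold change was 2.18 (SE 0.26, adjusted p = 0.0425 by edgeR), and 1.88 with an adjusted p of 0.155 without labelled KO replicate 2, where all its alternatives gave 1.51e-07 to 0.155. Nin and Tubg1, of the microtubule anchor and the gamma-tubulin ring, had log2 fold changes of 0.10 (SE 0.12) and −0.02 (SE 0.11), and Pcm1, a scaffold of centriolar satellites, 0.20 (SE 0.13). The median of the 10 was 0.13. At an unadjusted p under 0.05 by edgeR there were 1 higher and 0 lower, against 12.9% of all genes tested. In 4 of the 10, or 40.0%, the labels did not overlap, against 44.9% of all genes tested.

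**Figure D4:**
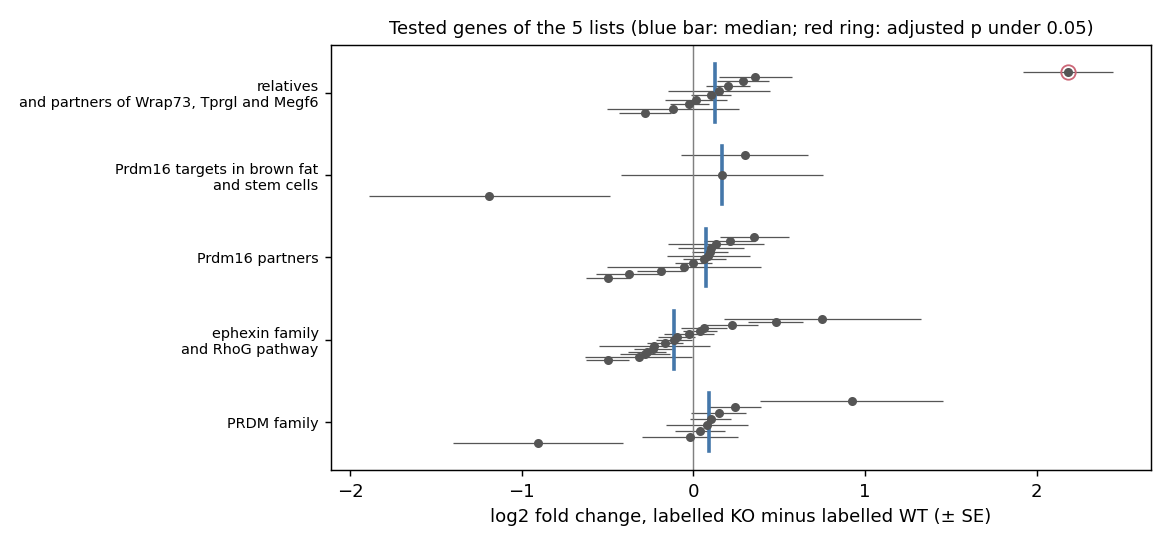
Fitted log2 fold change, labelled KO minus labelled WT, of each tested gene in 5 lists of related genes, with its standard error; blue bars are medians and the red ring marks the gene with an adjusted p under 0.05. Cep290 alone is ringed, at 2.18, and the medians lie between −0.11 and 0.17.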

How the data were processed

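Per the file headers, the authors deposited counts per gene, whole numbers with no normalization, and FPKM, which scales counts to gene length in kilobases and to the library total. The submitters' processing notes name kallisto and GRCm38 with no version or role. The sources used here do not give how reads were counted, whether strand was used or which filters were applied. Columns were joined to samples through the description codes, and 8 other columns of values were not used. All 5 locus genes lie at the same span in GENCODE M21.

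Genes were filtered by filterByExpr, which left 13528, scaled by TMM and tested in all 4 libraries with edgeR 4.0.16 in R 4.3.3. The test was the two-sided quasi-likelihood F test of KO-labelled minus WT-labelled libraries, with Benjamini-Hochberg adjustment and a threshold of 0.05. The standard error is the log2 fold change over the square root of F. The fit was tested on simulated counts. DESeq2 1.42.0 and limma 3.58.1 on log2(FPKM + 1) and log2(FPKM + 0.1) were alternatives, with other filters and scalings, single libraries left out and the replicate number as a block. Exact intervals are Clopper-Pearson at 95%, and with the floor of 3 counts they cover counting error alone. With 2 libraries a label, a single value cannot pass an exact permutation test. The p values by edgeR rest on the spread between these libraries, drawn in part from the other genes tested (4.87 prior degrees of freedom).

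The locus genes, lists and tests were chosen with earlier results of these data known. Named genes were the called genes, the 5 nearest tested genes on each side of the locus, and in each list the 3 most abundant and the 2 of smallest p; for likeness, the 5 closest profiles. A few genes that this rule names are not reported here.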

Additional observations from a re-analysis of the deposited data

How the results depend on the processing

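The replicate numbers are not stated to pair libraries across labels, and the deviations of same-numbered libraries correlated at −0.17 over genes. With the replicate number as a block 123 genes were called in place of 28, while the number called in the window and in each list was as in the fit without it. Over all genes DESeq2 called 257, no filter on low counts 146, a mean of at least 1 CPM 51, log2(FPKM + 1) 5 and log2(FPKM + 0.1) 4, and leaving out single libraries gave 8 to 304. DESeq2 size factors in edgeR gave 28. The window gave 0 calls in all 13 alternatives, windows of 0.5 and 2 Mb among them. So did the PRDM genes and the listed partners and targets of Prdm16 in all 11. The RhoG list gave 1 call by DESeq2, and the list with Cep290 gave 0 on log2(FPKM + 1), 0 on log2(FPKM + 0.1) and 0 to 1 with single libraries left out. Prdm16 had log2 fold changes of 1.15 and 2.67 on log2(FPKM + 1) and log2(FPKM + 0.1), where low values are compressed, and 2.75 to 3.84 with single libraries left out. Arhgef16 had −7.74 by DESeq2, −0.41 and −2.10 on the FPKM scales and −8.72 to −7.88 with single libraries left out. Tprgl ranged from −0.0075 to 0.081 and Wrap73 from −0.25 to 0.041 as libraries were left out, and Ppm1k from 0.73 to 1.24. The gap between Arhgef16 and Prdm16, labelled KO minus labelled WT, was −7.60 with a prior count of 2, −9.60 with 0.5 and −4.77 on log2(FPKM + 0.1). Ctbp1, near 0, turned from −0.00079 to 0.0079 with DESeq2 size factors, 0.0063 by DESeq2, 0.017 on log2(FPKM + 1) and 0.018 on log2(FPKM + 0.1).

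With single libraries left out, uncalled genes turned sign within these ranges: Fam213b −0.63 to 0.018, Tnfrsf14 −0.29 to 0.10, Pank4 −0.058 to 0.0072, Pex10 −0.19 to 0.37, Prdm10 −0.014 to 0.10, Arhgdia −0.16 to 0.13, Ctbp1 −0.053 to 0.061, Ski −0.36 to 0.43, Pank1 −0.091 to 0.79, Gata2 −2.06 to 0.15, Hlf −0.43 to 1.44, Tubg1 −0.10 to 0.068 and Nin −0.0061 to 0.21. Low counts limit Megf6, Arhgef16 and the brown fat genes. For every change named above the cause was not tested, except that log2(FPKM + 1) compresses low values by construction.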
